A study of Mus musculus with 2 samples.

Results

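Oligodendrocyte precursor cells (OPCs) were chosen by their own RNA counts. A nucleus was taken as an OPC where the unique molecular identifiers (UMIs, each marking 1 captured RNA molecule) of Pdgfra, Vcan, Cspg4 and C1ql1 together came to at least 5 and to at least 0.15% of all UMIs of the nucleus. It also had to hold at least 1 UMI of Pdgfra and 2 of Lhfpl3, with at most 3 of the GABAergic genes Gad1 and Gad2 and at most 1 of the leptomeningeal genes Slc6a13 and Ranbp3l. Of 12918 nuclei 154 met these conditions, 78 of 6745 in the vehicle library and 76 of 6173 in the OLE library. The nuclei came from frozen entorhinal cortex of male APP/PS1 mice, a transgenic model that deposits amyloid in the brain. Mice of the OLE group had received N-oleoyl-leucine (OLE, C18:1-Leu in the labels), a fatty acid joined to an amino acid, at a dose of 25 mg/kg/day, given for 3 months in drinking water made alkaline and begun at 15 months of age. The vehicle group had received DMSO in the same way, and both groups were male, reached 18 months and carried the APP/PS1 genotype. Each library pooled 5 mice and each group was 1 library, so no test was run between the groups, nuclei were not used as replicates, and all intervals are 95% intervals of counting error only. A difference between the libraries can therefore not be told apart from one between the pools of mice or between the preparations.

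OPCs are the dividing glia of the adult brain from which new myelinating oligodendrocytes arise. They are held in the precursor state by growth factor signals through the receptor Pdgfra, they carry the chondroitin sulfate proteoglycans Cspg4 (NG2) and Vcan on or around their surface, and they receive synaptic input from neurons. On their way to an oligodendrocyte they lose Pdgfra and pass through a short stage marked by the receptor Gpr17 before myelin genes are switched on.

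The genes behind the choice are shown by the bases just upstream of their RefSeq starts (GRCm38.p6), since these are the genes whose RNA marks the cells. Capitals mark CATCTG (or CAGATG on the other strand) and CAGCTG, forms of the E-box that basic helix-loop-helix factors such as Olig2 can bind, and ACAAAG (or CTTTGT), the core that Sox factors can bind. The windows lie at chr5:75152001-75152250 on the plus strand for Pdgfra, at chr5:22745804-22746053 on the plus strand for Lhfpl3, at chr13:89742513-89742762 on the minus strand for Vcan and at chr9:56864854-56865032 on the plus strand for Cspg4, where the last is cut short at the GENCODE start of the gene.
Pdgfra: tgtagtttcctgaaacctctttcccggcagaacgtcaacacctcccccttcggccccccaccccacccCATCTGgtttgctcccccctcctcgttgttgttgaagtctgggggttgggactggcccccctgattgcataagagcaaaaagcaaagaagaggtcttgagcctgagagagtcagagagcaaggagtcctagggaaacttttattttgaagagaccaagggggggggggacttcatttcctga
Lhfpl3: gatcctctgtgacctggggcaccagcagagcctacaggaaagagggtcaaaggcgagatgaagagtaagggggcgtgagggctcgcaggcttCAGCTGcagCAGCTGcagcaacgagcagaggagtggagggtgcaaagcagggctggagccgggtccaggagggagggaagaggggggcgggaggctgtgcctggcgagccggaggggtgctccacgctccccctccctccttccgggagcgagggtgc
Vcan: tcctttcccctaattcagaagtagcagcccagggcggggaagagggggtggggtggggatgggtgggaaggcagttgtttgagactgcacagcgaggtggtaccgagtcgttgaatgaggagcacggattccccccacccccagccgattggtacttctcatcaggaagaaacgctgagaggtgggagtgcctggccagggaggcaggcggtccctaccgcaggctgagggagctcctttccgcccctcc
Cspg4: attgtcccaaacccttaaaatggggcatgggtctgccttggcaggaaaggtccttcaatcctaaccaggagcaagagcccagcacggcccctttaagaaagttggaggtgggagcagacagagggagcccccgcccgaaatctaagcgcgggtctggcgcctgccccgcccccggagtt
The Pdgfra window held 1 of the 3 motifs, and the Lhfpl3 window held CAGCTG at a pair of places 3 bases apart. In GENCODE vM21 the Vcan window lies in an intron of the antisense gene Gm4117, and the Lhfpl3 window in an exon of A930003O13Rik on the opposite strand. The same motifs were counted in the 250 bases upstream of the genes that stood at least 4-fold higher in OPC nuclei than elsewhere (described below by their values). ACAAAG was found in 20.9% of the 225 windows of 167 such genes and in 16.5% of all 32851 windows, CAGCTG in 15.6% against 13.0%, and CATCTG in 13.3% against 14.4%. A match is a run of letters and not evidence of binding.

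The OPC nuclei were deep for glia. They held a median of 6898 UMIs in the vehicle library (1968 to 15543) and 7291.5 in the OLE library (1620 to 16911), and their sums were 576152 and 577289 UMIs, so that both sides of each comparison rested on nearly the same number of molecules. The whole libraries differed more, with a median of 3989 UMIs per nucleus in the vehicle and 6392 in the OLE library over totals of 70845739 and 69485537 UMIs. Mitochondrially encoded RNA made up 1.06% and 0.858% of the OPC sums. The libraries shared 14 cell barcodes, none of which belonged to an OPC nucleus.

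The share of OPC nuclei was nearly the same in both libraries. It was 1.16% (0.915 to 1.44%) in the vehicle library and 1.23% (0.971 to 1.54%) in the OLE library, a difference of 0.0748 percentage points (-0.311 to 0.466). Among the nuclei of the 4 glial classes that marker counts could assign, OPCs made up 7.56% (6.02 to 9.34%) in vehicle and 7.84% (6.22 to 9.71%) in OLE. The lowest marker share among the chosen nuclei was 0.151% in both libraries, and the highest among the nuclei just below the threshold was 0.146% in vehicle and 0.147% in OLE. Below the threshold the libraries were unequal, since 17 vehicle nuclei but 5 OLE nuclei had 0.1 to 0.15%. With a threshold of 0.1% the shares became 1.41% (1.14 to 1.72%) in vehicle and 1.31% (1.04 to 1.63%) in OLE, which turned the sign of the difference.

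The chosen nuclei carried the other genes of the lineage, which the conditions had not used. Of 20 further OPC identity genes, 19 reached 100 UMIs over both libraries, and 16 of these stood at least 4-fold above all other nuclei in both. Since the choice was made on the RNA of the same nuclei, these are descriptions and not tests. Levels are given as UMIs per 1000000 of the summed nuclei (CPM). Pdgfra itself, the receptor for platelet-derived growth factor, had 830 and 883 CPM in the vehicle and OLE sums, 104 and 96.2 times its level in all other nuclei. Cacng4, an auxiliary subunit of AMPA receptors, stood 82.1-fold and 67.4-fold higher than elsewhere, and Neu4, a sialidase, 80.4-fold and 79.9-fold. The transcription factor Sox10 was 21.0-fold and 22.7-fold higher than in all other nuclei, and in the vehicle sums it had 314 CPM in OPCs beside 312 in oligodendrocytes, so that it marked the lineage and not the precursor. Ptprz1, a receptor phosphatase that carries chondroitin sulfate, was likewise high in astrocytes.

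**Figure D1:**
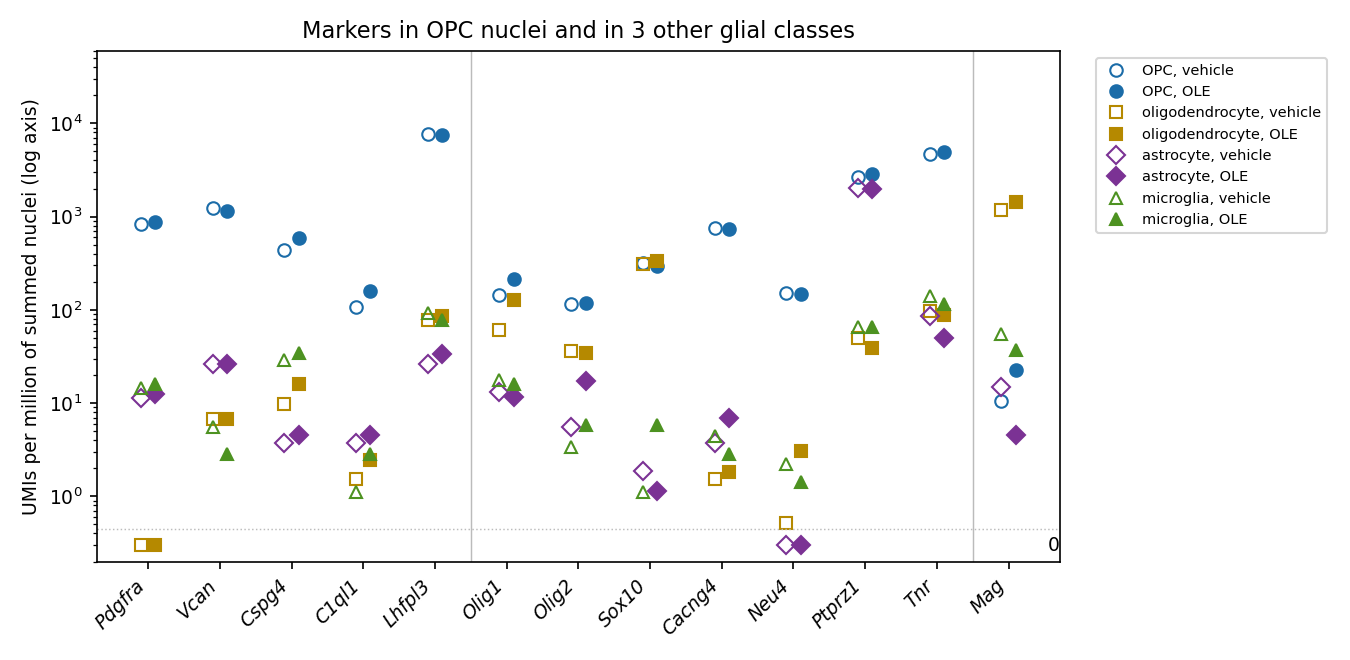
CPM (log axis) of summed nuclei for the 5 genes used to choose OPCs (left), 7 further lineage genes (middle) and the myelin gene Mag (right), in OPCs, oligodendrocytes, astrocytes and microglia, with open symbols for vehicle and filled symbols for OLE, and values of 0 drawn under the dotted line. Pdgfra has 0 UMIs in oligodendrocytes because that class was defined so, Sox10 is shared with oligodendrocytes, Ptprz1 with astrocytes, and Mag is highest in oligodendrocytes.

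Over the 2110 genes with at least 100 UMIs in the OPC sums, 223 (10.6%) stood at least 4-fold higher in OPCs than in all other nuclei in both libraries. The 20 with the largest fold by the lower of the libraries were Pdgfra, Cspg4, S100a3, Gucy2f, Vcan, Neu4, Emid1, Rlbp1, C1ql1, Cacng4, Afap1l2, Scel, 6030407O03Rik, Calcrl, Stk32a, Gpr17, Car8, Shc4, Gm33680 and Susd5. Their folds ran from 40.3 for Susd5 in OLE to 112 for Cspg4 in OLE. Among them are a receptor for calcitonin-family peptides (Calcrl), an adaptor of receptor tyrosine kinases (Shc4) and a retinoid-binding protein best known from retina and Müller glia (Rlbp1). In the opposite direction 41 genes stood at least 4-fold lower. Examples chosen after their values were seen are the synaptic vesicle protein gene Syt1 (0.117 and 0.106 times the level elsewhere), the NMDA receptor subunit gene Grin2a (0.0700 and 0.0825 times) and the nuclear RNA Meg3 (0.113 and 0.128 times).

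RNA of other cell types was found in the chosen nuclei. The 6 glutamatergic markers summed to 110 UMIs in the vehicle and 108 in the OLE OPC nuclei, 17.4% and 15.8% of their level in the whole libraries. Other markers were nearer to their level elsewhere. The 6 astrocyte markers summed to 38 and 68 UMIs, or 66.0 and 118 CPM beside 65.1 and 101 CPM in all other nuclei, with at most 3 and 8 UMIs in a nucleus. The 6 GABAergic markers summed to 59 and 90 UMIs, or 102 and 156 CPM beside 198 and 300 CPM elsewhere, a log2 ratio of 0.61 (0.12 to 1.11). The 6 microglia markers summed to 84 and 40 UMIs, or 146 and 69.3 CPM beside 178 and 184 CPM, and a single vehicle nucleus held 24 of them. The astrocyte and GABAergic sums were thus higher and the microglia sum lower in the OLE OPCs. The 6 oligodendrocyte markers summed to 97 and 107 UMIs, or 168 and 185 CPM beside 223 and 215 CPM, with at most 8 and 14 UMIs in a nucleus, and the 4 endothelial markers to 1 and 15 UMIs with 3 of the 4 at 0 in vehicle. Every one of the 6 markers of each glial list was detected in both libraries. The comparisons below were repeated without the 7 vehicle and 5 OLE nuclei richest in oligodendrocyte, astrocyte, microglia or glutamatergic markers. GABAergic and endothelial markers were not used to leave nuclei out. The comparisons were also repeated with a profile of the whole library subtracted, scaled on the glutamatergic markers at 17.4% and 15.8%.

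Between the libraries the OPC profile was close to even. Of the 2110 genes, 53 (2.51%) were at least 1.5-fold higher in OLE and 46 (2.18%) at least 1.5-fold lower, and the median log2(OLE/vehicle) of CPM was -0.02, as it was in all other nuclei. With the library profile subtracted the split was 73 higher and 39 lower, and without the nuclei richest in other cells' markers it was 52 and 34. For 293 genes (13.9%) the counting interval of the log2 ratio left out 0, 142 of them higher and 151 lower. Among the 970 genes with at least 200 UMIs, 14 were at least 1.5-fold higher and 4 at least 1.5-fold lower. In vehicle, oligodendrocytes, astrocytes and microglia held 1943489, 534990 and 895529 of the 70269587 UMIs of all other nuclei. A 4-fold excess over all other nuclei is thus mainly one over nuclei outside these glial classes. Of the 223 genes with such an excess in both libraries, 12 (5.38%) were at least 1.5-fold higher in OLE and 2 (0.897%) lower. The median log2 ratio of the 223 genes was 0.01. The ends of that set were Tmem176b, a membrane protein with 36 and 79 UMIs (1.13), and the calcium-binding protein gene S100a3 with 64 and 40 (-0.68, -1.29 to -0.09), whose log2 ratio over all other nuclei was -0.99. Some of the 12 higher genes were shared with other glia. Gpr37l1 was detected in 65.4% of vehicle and 84.2% of OLE OPCs, and in 80.6% and 91.4% of astrocytes. Tcf7l2 was detected in 47.4% and 57.9% of OPCs, and in 74.2% and 72.9% of astrocytes. Gpr17, in contrast, was detected in 57.7% and 72.4% of OPCs, and in at most 1.74% of oligodendrocytes, astrocytes or microglia.

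**Figure D2:**
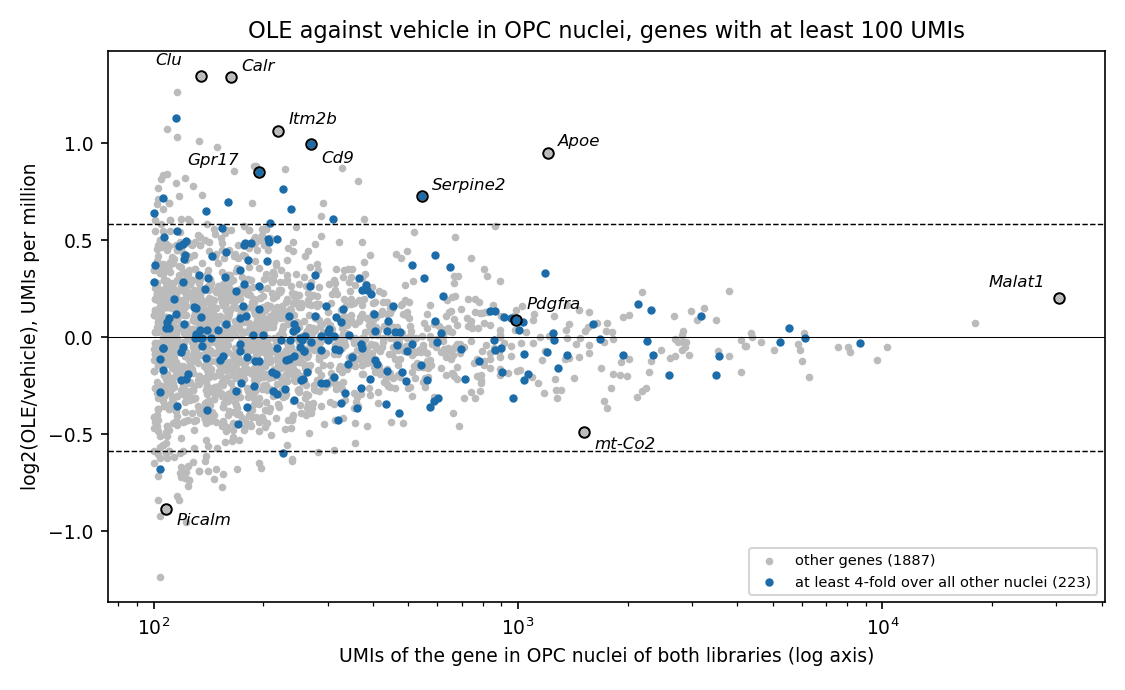
Each point is 1 of the 2110 genes with at least 100 UMIs in OPC nuclei, placed by its UMIs over both libraries (log axis) and its log2(OLE/vehicle) of CPM, with the 223 genes at least 4-fold over all other nuclei in blue and 1.5-fold either way dashed. The scatter narrows with depth, Apoe and Serpine2 stand above the line among well-counted genes, and Pdgfra lies near 0 at 0.09.

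Of the 5 genes that chose the nuclei, Pdgfra, Vcan and Lhfpl3 were among the even ones, while Cspg4 and C1ql1 were higher in OLE. In the vehicle and OLE nuclei Pdgfra had 478 and 510 UMIs, with a log2 ratio of 0.09 (-0.09 to 0.27). Vcan, the secreted proteoglycan versican, had 705 and 662 UMIs (-0.09, -0.25 to 0.06), and Lhfpl3, a tetraspan membrane protein, 4377 and 4303 (-0.03, -0.09 to 0.03). Cspg4 with 252 and 339 UMIs stood 0.43 higher in OLE on the log2 scale (0.19 to 0.67) and C1ql1, a secreted synaptic organizer, with 62 and 92 UMIs 0.57 higher (0.09 to 1.06), both short of 1.5-fold. These 5 genes chose the nuclei, so their ratios are descriptions of the choice as well as of the cells. Of the 19 further identity genes 1 was at least 1.5-fold higher in OLE and none lower, with a median log2 ratio of -0.02 beside -0.02 over all 2110 genes.

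The gene past the line was Olig1, a basic helix-loop-helix factor needed for the maturation of oligodendrocytes. It had 83 UMIs in the vehicle and 125 in the OLE nuclei, 144 and 217 CPM, a log2 ratio of 0.59 (0.18 to 1.01). Its log2 ratio was 1.05 in oligodendrocytes and 0.57 over all other nuclei. When each nucleus was thinned to 1000 UMIs the log2 ratio of Olig1 was -0.28. After thinning, which is a random draw that leaves few UMIs of such a gene, 19.2% of the vehicle and 14.5% of the OLE OPCs held an Olig1 UMI. With all UMIs and nuclei weighted equally the log2 ratio was 0.58. The cause of the change in sign was not tested. Its partner Olig2 had 66 and 68 UMIs (0.04, -0.47 to 0.55), and Sox10 181 and 169 (-0.10, -0.41 to 0.21). Matn4, a matrix protein, had 223 and 289 UMIs (0.37, 0.11 to 0.63), short of 1.5-fold.

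Genes of the step that follows the precursor stage gave a divided picture. Of 20 genes of committed precursors and newly formed oligodendrocytes 9 reached 100 UMIs, of which 2 were at least 1.5-fold higher in OLE and none lower, and the median log2 ratio was -0.09. The shares over all 2110 genes were 2.51% higher and 2.18% lower, and the median was -0.02. Gpr17, the G protein-coupled receptor that marks this step, had 69 UMIs in vehicle and 125 in OLE, a log2 ratio of 0.85 (0.42 to 1.30). It was detected in 57.7% of vehicle OPCs and 72.4% of OLE OPCs, and after thinning to 1000 UMIs in 11.5% and 21.1%, whereas oligodendrocytes, at median depths of 3558 and 3213 UMIs, showed it in 0.388% and 0.211% after thinning. No single nucleus carried the difference, since the highest count was 6 in vehicle and 5 in OLE.

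Tcf7l2, a Wnt effector that is switched on as precursors differentiate, had 61 and 99 UMIs (0.70, 0.22 to 1.18). It was under 1.5-fold with nuclei weighted equally (0.58), without the nuclei richest in other cells' markers (0.49), when thinned (0.26) and at a marker share of at least 0.3% (0.23). That last threshold, also used below, kept 23 vehicle and 28 OLE nuclei. Astrocytes held Tcf7l2 in 74.2% and 72.9% of nuclei at median depths of 5247 and 5513.5 UMIs. The astrocyte markers summed to 38 UMIs in the vehicle and 68 in the OLE OPCs. With the library profile subtracted the log2 ratio of Tcf7l2 was 0.69. The part of astrocyte RNA in this ratio was not tested. Other genes of the same step were lower or even. Bcas1, a marker of early myelinating cells, had 333 and 269 UMIs (-0.31, -0.55 to -0.07) beside a log2 ratio of -0.30 over all other nuclei, and Itpr2, a calcium release channel, 327 and 261 (-0.33, -0.57 to -0.09). Tns3 had 171 and 173 UMIs (0.01). The ectonucleotidase Enpp6, which appears once differentiation has begun, gave 3 UMIs in vehicle and 0 in OLE, and Bmp4 1 and 3, too few to compare. Of the 14 myelin genes 2 reached 100 UMIs and neither was past 1.5-fold. Ugt8a, an enzyme of galactolipid synthesis, had 72 and 75 UMIs (0.06, -0.43 to 0.54). Of 18 genes that hold back differentiation 3 reached 100 UMIs and none was past 1.5-fold. Among these Zeb1 had 1000 and 1130 UMIs (0.17, 0.05 to 0.30).

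Nuclei rich in genes of proliferation were found among the vehicle OPCs only. Of the 78 vehicle OPCs 2 held at least 5 UMIs of Mki67 and Top2a, genes of proliferating cells, 2.56% (0.312 to 8.96%). They carried 16 and 18 such UMIs, 53 and 82 UMIs over the 38 cell cycle genes, and 19 and 7 UMIs of Pdgfra. Of the 76 OLE OPCs 0 did so, which allows a share of up to 3.95% by the limit of 3 counts and 4.74% by the exact interval, so the shares could not be told apart at this number of nuclei. Over the cell cycle list the OPCs had 388 UMIs in vehicle and 209 in OLE, a log2 ratio of the sums of -0.90 (-1.15 to -0.65), and without the 2 nuclei 458 and 362 CPM, a log2 ratio of -0.34 (-0.61 to -0.07). None of the 38 genes reached 100 UMIs.

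**Figure D3:**
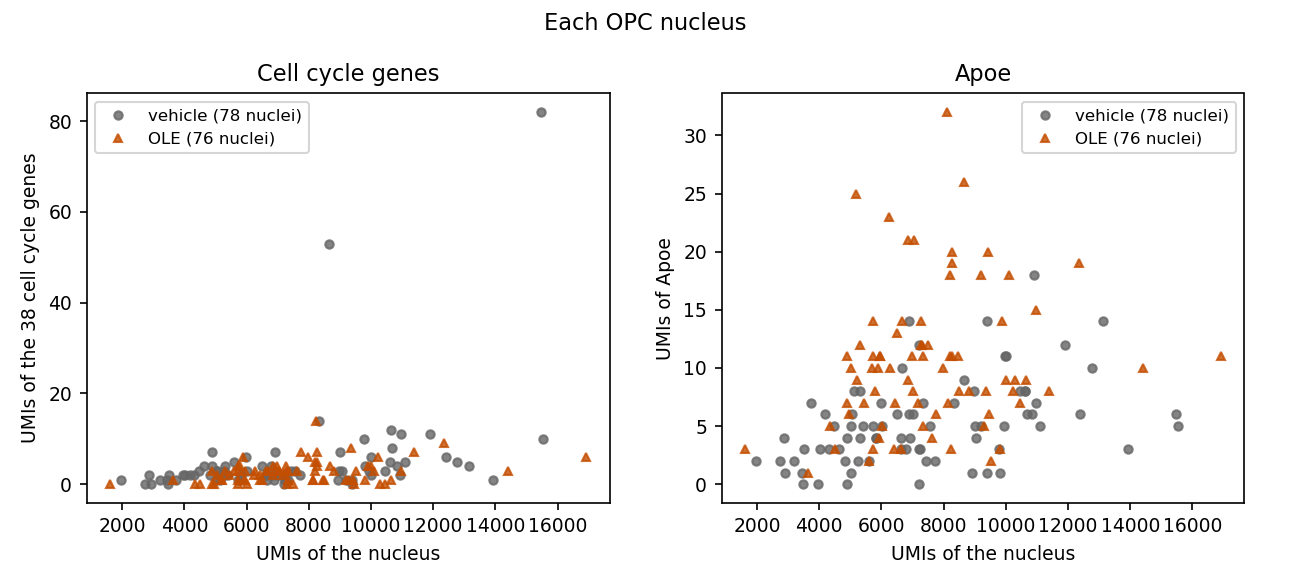
UMIs of the 38 cell cycle genes (left) and of Apoe (right) in each OPC nucleus against all UMIs of the nucleus, with grey circles for the 78 vehicle and orange triangles for the 76 OLE nuclei. On the left 2 vehicle nuclei with 53 and 82 UMIs stand apart from the rest, none of which exceeds 14. On the right the OLE nuclei lie higher across the range of depths, with medians of 10 and 5 UMIs.

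The 10 highest log2 ratios among genes with at least 200 UMIs belonged to Itm2b, Cd9, Apoe, Slc22a17, Scd2, Sparcl1, Ednrb, Serpine2, Cd81 and Gpr37l1, with a median span of 19.1 kb. All 10 were also higher in OLE over all other nuclei and in astrocytes, and 8 of 10 in oligodendrocytes. Apoe, at chr7:19696109-19699188 (GRCm38), which codes for the main lipid carrier of the brain, had 411 UMIs in vehicle and 797 in OLE OPCs, or 713 and 1381 CPM. Its log2 ratio was 0.95 (0.78 to 1.13) in OPCs, 0.92 in oligodendrocytes, 0.72 in astrocytes and 0.84 over all other nuclei.

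In single OPC nuclei Apoe had a median of 5 UMIs in vehicle (0 to 18) and 10 in OLE (1 to 32), so that the libraries overlapped while the OLE nuclei lay higher as a whole. After thinning to 1000 UMIs, 53.8% of the vehicle and 73.7% of the OLE OPCs held an Apoe UMI, beside 32.4% and 50.1% of oligodendrocytes, which are not known as a main source of it. Its level in OPCs was 3.75 and 4.04 times that of all other nuclei. The log2 ratio of Apoe was 0.94 with the library profile subtracted and 0.94 without the nuclei richest in other cells' markers. The subtracted profile was scaled on the glutamatergic markers, so RNA from astrocytes or microglia may have been removed only in part. The part of such RNA in the Apoe ratio was not tested. The astrocyte markers summed to 38 and 68 UMIs and the microglia markers to 84 and 40 in the same nuclei.

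Itm2b, a membrane protein that restrains amyloid precursor protein processing, had 71 and 149 UMIs, a log2 ratio of 1.07 (0.65 to 1.5) beside 0.69 over all other nuclei. Cd9, a tetraspanin of precursor and glial membranes, had 90 and 180 UMIs and 1.00 (0.62 to 1.38), beside 1.02 in oligodendrocytes and 0.47 (0.39 to 0.55) over all other nuclei. Its partner tetraspanin Cd81 had 111 and 180 UMIs and 0.69 (0.35 to 1.05), beside 0.74 elsewhere. Scd2, the brain form of stearoyl-CoA desaturase, had 81 and 148 UMIs and 0.87 (0.47 to 1.28), and it was the only one of the 3 genes of cholesterol and fatty acid synthesis with 100 UMIs that was past 1.5-fold.

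Others of the 10 are genes that OPCs share with astrocytes. Ednrb, the endothelin receptor type B that slows precursor differentiation when active, had 84 UMIs in vehicle and 143 in OLE, a log2 ratio of 0.76 (0.37 to 1.17). In astrocytes its log2 ratio was 0.11 (-0.28 to 0.52). After thinning it was found in 11.5% of the vehicle and 21.1% of the OLE OPCs, beside 0.583% and 0.211% of oligodendrocytes. Serpine2, a secreted protease inhibitor, had 205 and 340 UMIs and 0.73 (0.47 to 0.98), beside 0.05 (-0.25 to 0.35) in astrocytes and 0.00 (-0.66 to 0.66) in oligodendrocytes. Gpr37l1, a glial receptor, had 92 and 146 UMIs and 0.66 (0.28 to 1.06), beside 0.88 over all other nuclei. Sparcl1, a matrix protein of astrocytes, had 132 and 231 UMIs (0.80, 0.49 to 1.12) beside 0.26 in astrocytes and -0.30 in oligodendrocytes, and the transporter-family gene Slc22a17 116 and 213 (0.87, 0.54 to 1.21). The counting intervals of Ednrb overlapped between OPCs and astrocytes and those of Serpine2 did not. The difference between the cell types was not tested.

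**Figure D4:**
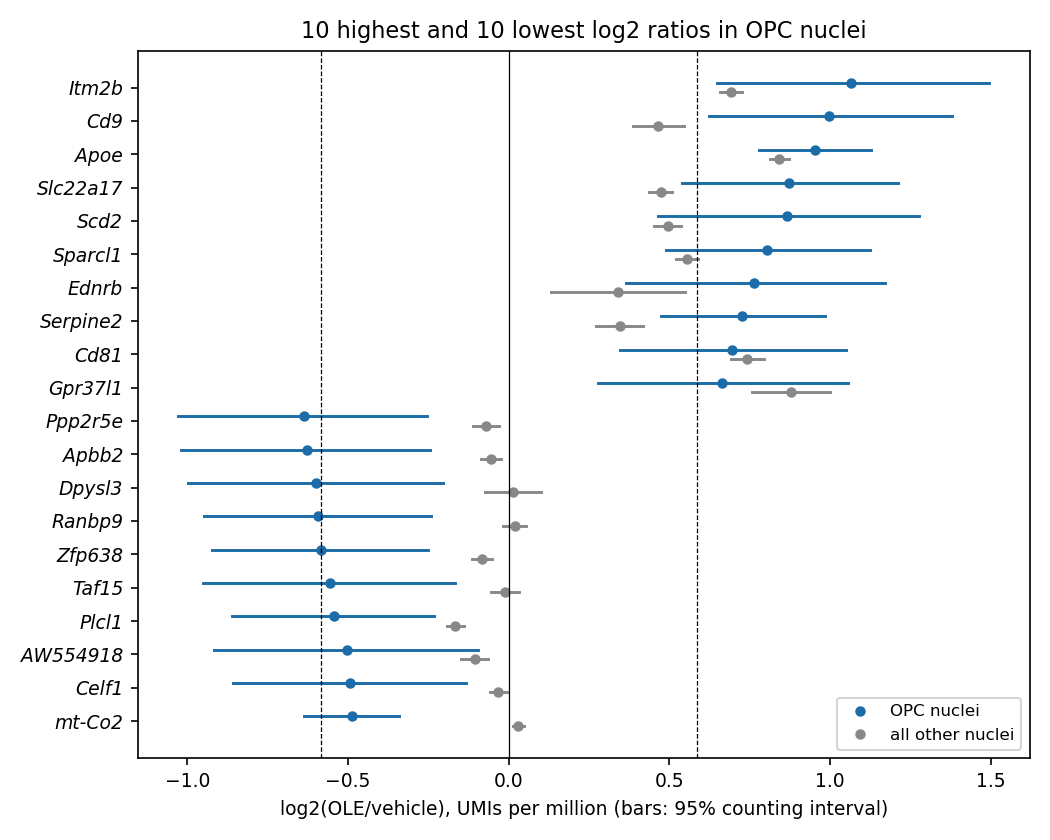
log2(OLE/vehicle) of CPM with 95% counting intervals for the 10 highest and 10 lowest genes with at least 200 UMIs, in OPC nuclei (blue) and in all other nuclei (grey), with 1.5-fold either way dashed. The 10 highest genes lie above 0 in both sets, while the 10 lowest lie near 0 in all other nuclei.

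The 10 lowest log2 ratios were smaller in size. They belonged to Ppp2r5e, Apbb2, Dpysl3, Ranbp9, Zfp638, Taf15, Plcl1, AW554918, Celf1 and mt-Co2. Ppp2r5e, a regulatory subunit of protein phosphatase 2A, had 146 UMIs in vehicle and 94 in OLE (-0.64, -1.03 to -0.25), and -0.08 in the nuclei with a marker share of at least 0.3%. Dpysl3, a cytoskeletal regulator and the only one of the 10 that stood at least 4-fold above other nuclei, had 136 and 90 UMIs (-0.60, -1.0 to -0.20). In those nuclei its log2 ratio was 0.04. mt-Co2, a mitochondrially encoded subunit of cytochrome c oxidase, had 885 and 632 UMIs (-0.49, -0.64 to -0.34), beside 0.03 over all other nuclei. Over all other nuclei the ratios of these 10 genes lay between -0.17 and 0.03, and 3 of them were above 0.

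Of the 9 measured genes tied to amyloid and to Apoe, 8 had log2 ratios above 0. Of 23 such genes 9 reached 100 UMIs, of which 5 were at least 1.5-fold higher (Apoe, Clu, Cst3, Itm2b and Cd81) and 1 lower (Picalm). Over all 2110 genes 2.51% were at least 1.5-fold higher and 2.18% lower, with a median log2 ratio of -0.02. The median of the list was 0.69 in OPCs beside 0.60 over all other nuclei, 0.47 in astrocytes and 0.21 in oligodendrocytes. The list held genes that the study names for these libraries, so it was not independent of them. Clu, the secreted chaperone clusterin, had 38 and 97 UMIs (1.35, 0.79 to 1.93), and Cst3, the protease inhibitor cystatin C, 71 and 115 (0.69, 0.25 to 1.14). Picalm, an adaptor of clathrin-mediated endocytosis, had 70 and 38 UMIs (-0.88, -1.49 to -0.29), and -0.23 at a marker share of at least 0.3%. Clu reached the minimum of 100 UMIs through its OLE count and Picalm through its vehicle count. App, the amyloid precursor protein, had 215 and 227 UMIs (0.08, -0.20 to 0.35).

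Of 28 genes of endoplasmic reticulum chaperones and stress 6 reached 100 UMIs, 2 of them at least 1.5-fold higher in OLE where 2.51% of all genes were, with a median log2 ratio of 0.49 beside 0.48 over all other nuclei. These 2, Calr and Hspa5, are genes that the study names for these libraries, so the list was not independent of them. Both reached the minimum, which was taken over both libraries, through their higher counts in OLE. Calr, the calcium-binding chaperone calreticulin, had 46 UMIs in vehicle and 117 in OLE, a log2 ratio of 1.34 (0.84 to 1.87) beside 0.67 over all other nuclei and 0.26 in oligodendrocytes. Hspa5, the chaperone BiP, had 42 and 73 UMIs (0.79, 0.23 to 1.38), and was under 1.5-fold with nuclei weighted equally (0.54), at a marker share of at least 0.3% (0.45) and when thinned (0.30), while the calcium pump gene Atp2a2 had 99 and 99 (-0.00, -0.42 to 0.41). Of 27 cytosolic and mitochondrial chaperones 2 reached 100 UMIs, Hspa8 with 36 and 79 UMIs (1.13, 0.55 to 1.74) and Hsp90ab1 with 51 and 66 (0.37, -0.18 to 0.93). Of 30 genes of antigen presentation and reactive glia 3 reached 100 UMIs, and 2 of them, Cd9 and the protease gene Ctsb with 38 and 67 UMIs (0.82, 0.22 to 1.43), were at least 1.5-fold higher. Hspa8 and Ctsb likewise reached the minimum through their OLE counts.

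Length of the gene went together with the ratios. Genes spanning under 20 kb had a median log2 ratio of 0.24 in OPCs (110 genes, 19 of them at least 1.5-fold higher and 1 lower), and those of 400 kb and over -0.05 (280 genes, 1 higher and 2 lower). The 53 genes at least 1.5-fold higher had a median span of 34.5 kb, the 46 lower ones 83.9 kb, and all 2110 genes 121 kb. Over all other nuclei the same classes had medians of 0.20 and -0.08. In nuclei, long genes are counted largely through unspliced RNA and short genes more through spliced RNA. The part of RNA from the cytoplasm in these ratios was not tested.

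**Figure D5:**
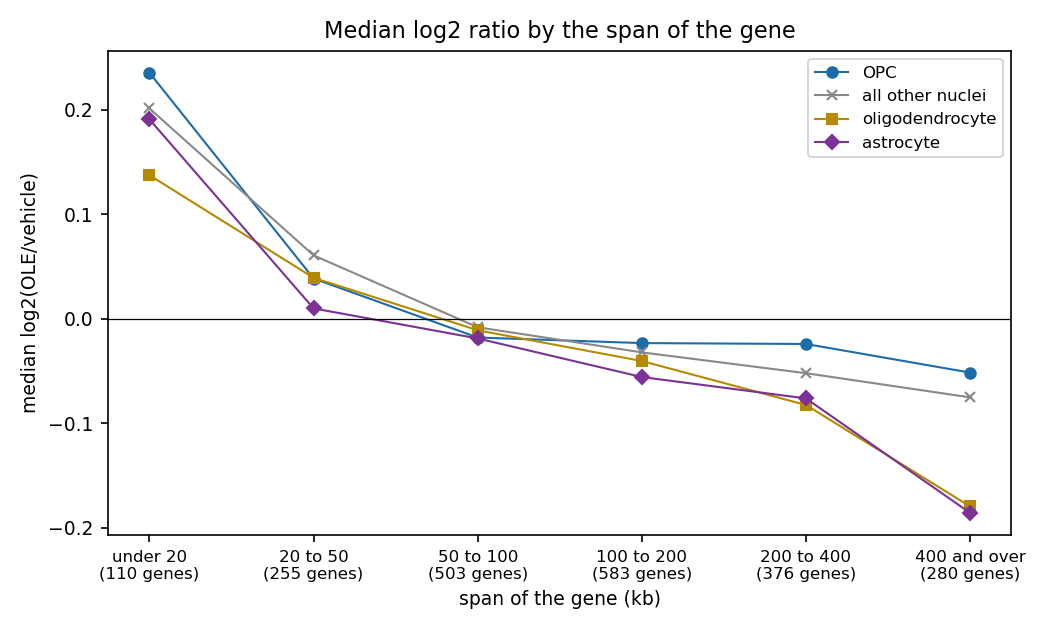
Median log2(OLE/vehicle) of genes with at least 100 UMIs in OPC nuclei, in 6 classes of gene span in kb (the number of genes under each class), for OPCs, oligodendrocytes, astrocytes and all other nuclei. The median is highest for genes under 20 kb in each of the 4 sets, at 0.24 in OPCs, and at or below -0.05 for genes of 400 kb and over.

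Of 28 proteoglycan and matrix genes 18 reached 100 UMIs, 12 of the list stood at least 4-fold above other nuclei in both libraries, 2 were at least 1.5-fold higher and none lower, and the median log2 ratio was 0.18 beside 0.09 over all other nuclei, -0.16 in oligodendrocytes and 0.01 in astrocytes. In the 23 vehicle and 28 OLE OPCs with a marker share of at least 0.3% the median of the list was -0.02. It was taken over the genes that reached 100 UMIs in those nuclei, so the medians rest on unlike sets of genes. Among all 2110 genes, 2.51% were at least 1.5-fold higher and 2.18% lower. Ncan, the proteoglycan neurocan, had 44 and 89 UMIs (1.01, 0.48 to 1.57) beside 0.19 over all other nuclei and -0.11 in astrocytes, and Sdc3, the heparan sulfate proteoglycan syndecan-3, 42 and 68 (0.69, 0.12 to 1.28), or -0.02 in the nuclei with a marker share of at least 0.3%. Ncan and Sdc3 reached the minimum of 100 UMIs through their OLE counts. Bcan, or brevican, had 284 and 366 UMIs (0.36, 0.14 to 0.59) and Cspg5, or neuroglycan C, 524 and 661 (0.33, 0.16 to 0.50), both short of 1.5-fold. Tnr, the matrix protein tenascin-R, had 2723 and 2822 UMIs (0.05, -0.03 to 0.13) and the glypican gene Gpc5 3062 and 3057 (-0.01, -0.08 to 0.07).

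Genes for contacts and signals between OPCs and neurons gave ratios close to 0. Of 42 adhesion genes 35 reached 100 UMIs and none was past 1.5-fold either way, with a median log2 ratio of -0.07. Few of all 2110 genes were past it, 2.51% higher and 2.18% lower, so short lists would hold few such genes. Lrrc4c, a postsynaptic adhesion protein, had 5222 and 5059 UMIs (-0.05, -0.10 to 0.01), and Lsamp, a cell adhesion protein of the immunoglobulin family, 8759 and 9225 (0.07, 0.03 to 0.11). The widest ratios of the list were 0.54 for Nlgn3, a neuroligin, and -0.51 for Tenm4, a teneurin needed for myelination. Of 25 glutamate receptor genes 19 reached 100 UMIs, 1 was at least 1.5-fold higher and none lower, and the median log2 ratio was -0.02. Gria2, Gria4 and Grin3a had log2 ratios of 0.14, 0.04 and -0.12, and Grm3, a metabotropic receptor, had 39 and 63 UMIs (0.69, 0.09 to 1.30). Grm3 reached the minimum of 100 UMIs through its OLE count. Without the 5 deepest nuclei of each library the log2 ratio of Grm3 was 0.06. Of 13 GABA receptor genes 7 and of 32 voltage-gated channel genes 17 reached 100 UMIs, with none past 1.5-fold. Their median log2 ratios were -0.07 and -0.07.

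Growth factor and differentiation pathways had few genes past 1.5-fold. Among all 2110 genes 2.51% were at least 1.5-fold higher and 2.18% lower, so lists this short would hold few such genes. Of 14 growth factor receptor genes outside the chosen ones 6 reached 100 UMIs and of 28 genes of receptor tyrosine kinase signalling 13, with none past 1.5-fold and medians of -0.03 and -0.02. Erbb4, a neuregulin receptor, had 1955 and 1829 UMIs (-0.10, -0.19 to -0.01), and Etv4, a transcription factor downstream of such receptors that stood 26.3-fold and 21.3-fold above other nuclei, had 116 and 96 (-0.28, -0.68 to 0.13). Of 21 Notch pathway genes 4 and of 28 genes of the BMP and TGF-beta pathway 3 reached 100 UMIs, none past 1.5-fold. Of 27 Wnt pathway genes 7 did so, of which Tcf7l2 was past it. None of the 14 genes of PM20D1 and N-acyl amino acid metabolism reached 100 UMIs. Pm20d1, whose enzyme can make and cleave N-acyl amino acids such as OLE, had 0 UMIs in both libraries, where 3 counts would have been 5.21 and 5.20 CPM, so that its level was not detectable at this depth. The amino acid transporter gene Slc3a2 had 17 and 27 UMIs (0.66, -0.26 to 1.63).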

How the data were processed

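Single-nucleus RNA of entorhinal cortex was measured with 10X 3′ chemistry in 1 library per group. Per the study's methods and the submitters' processing notes, the authors aligned reads to mm10 with introns included in Cell Ranger 3.0.1 (the matrix headers name 3.0.2) and filtered nuclei, doublets included, in Seurat 4.0.4. The deposited values used here are raw UMI counts per gene and nucleus. No column of another sample was found (0). Counts were summed over OPC nuclei and divided by the sum to give UMIs per 1000000 (CPM), with no pseudocount, and ratios carry exact binomial intervals and single levels exact Poisson or Clopper-Pearson intervals. UMIs are molecules of pooled mice, so these cover counting error only. Genes needed at least 100 UMIs over both libraries, and a 1.5-fold ratio was used as a line of size. A gene with few UMIs in 1 library could thus reach the minimum through its higher count in the other.

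Oligodendrocytes, astrocytes and microglia were assigned by marker sums in the same way, with Pdgfra at 0 for oligodendrocytes. No doublets were removed. Scrublet, as given in scanpy 1.11.5, marked 8 of 6745 and 7 of 6173 nuclei, so its calls were not used, and whether doublets remained after the authors' filter is unknown. Leaving out its top 5% of scores was an alternative. Named genes were the selection markers, the 10 highest and 10 lowest ratios at 200 or more UMIs, the 20 with the highest fold over other nuclei, members of described lists and genes the study names. Members and lists were chosen with earlier results of these data known. Other alternatives were trimmed-mean scaling in edgeR 4.0.16, median centring, equal weight per nucleus, thinning to 1000 UMIs, other minimums and marker thresholds, subtraction of the library profile, and leaving out deep nuclei, mitochondrial genes or nuclei with other cells' markers. Gene positions came from GENCODE vM21, which held 30934 of 31053 identifiers, and upstream bases from RefSeq. Computations used Python 3.11.15 and were tested on simulated data. Results on some genes are not reported here.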

Additional observations from a re-analysis of the deposited data

How the results depend on the processing

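The numbers of genes at least 1.5-fold higher and lower in OLE, 53 and 46 of 2110, moved with thinning, with the marker threshold and with the minimum. Thinning was a random draw that left fewer UMIs of each gene, and its genes were chosen on their counts before it. They were 317 and 354 with nuclei thinned to 1000 UMIs, 20 and 14 of 533 genes in nuclei with a marker share of at least 0.3%, 187 and 187 of 3994 genes with a minimum of 50 UMIs, 14 and 4 of 970 with 200, and 2358 and 2300 of 13145 with 1 UMI in each library. Of 132 values of counts, shares and list medians under the alternatives, these 10 were counted as moved and 122 were not. All 10 are counts of genes, and no list median or share was counted as moved. The margin for these was wide. The matrix list median went from 0.18 to -0.02 at the 0.3% threshold, where it was taken over the genes that reached 100 UMIs in fewer nuclei. The share difference went from 0.0748 to -0.0963 at 0.1%, and both values lay within the margin. The margin therefore cannot decide whether list medians and shares held. For 32 named genes there were 447 values, but those under the minimums of 50, 200 and 1 UMI could not differ, since a minimum does not enter the ratio of a gene. Trimmed-mean scaling, median centring and leaving mitochondrial UMIs out of the total shifted all genes alike. Of the 447 values, 25 were counted as moved. A further 3, of genes past 1.5-fold, turned sign, and the cause was not tested. The log2 ratio of Olig1 was -0.28 when thinned. At the 0.3% threshold that of Dpysl3 was 0.0375 and that of Sdc3 was -0.0169. Of the moved values, those of Taf15 (0.58) and AW554918 (0.42) when thinned and of Zfp638 (0.0041) at 0.3% also lay on the other side of 0. Of 26 named genes past 1.5-fold, 10 were past it under every alternative run (Apoe, Calr, Cd9, Clu, Gpr17, Itm2b, Ncan, Serpine2, Slc22a17 and Sparcl1). The other 16 were not, among them Olig1 under 7 of 14, Dpysl3 under 6 of 14 and Grm3 under 6 of 13. The median of the matrix list was -0.02 at 0.3%, and that of the committed precursor list, -0.09, was 0.0098 at 0.1%. Apoe stayed between 0.83 and 0.97. The median of the amyloid and Apoe list lay between 0.44 and 0.83. The threshold of 0.1% and the omission of nuclei with other cells' markers were chosen after seeing the data. No paired analysis was possible because each group was 1 library. With 1 library a group, the spread between mice is unknown, and genes under 100 UMIs, such as Slc3a2, entered no count.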

Other observations

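Some nuclei with RNA of the step after the precursor stage lay outside the chosen set. With at least 5 UMIs and 0.15% of the nucleus in Gpr17, Bmp4 and Enpp6 together, there were 2 such nuclei in the vehicle and 6 in the OLE library, all with 0 UMIs of Pdgfra. The vehicle nuclei held 6 and 12 UMIs of Enpp6 and 22 and 62 of Bcas1. Among the OLE nuclei 3 held Gpr17, with 14, 3 and 22 UMIs, and the other 3 held none, with 39, 19 and 12 UMIs of the oligodendrocyte markers. Enpp6 was also found in 22.9% of vehicle and 24.1% of OLE oligodendrocytes, so the 6 OLE nuclei cannot all be placed at that step. The numbers are too small to compare the libraries.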
